A study of Mus musculus with 6 samples.

Results

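The genes described here encode the scaffolds of the postsynaptic density and the adhesion molecules that join the presynaptic and the postsynaptic membrane. They are 40 genes named by symbol, and all 40 had a row in a table of read counts over 48709 Ensembl genes from mouse cerebellum. All 40 also passed the filter on low counts that left 16699 genes for testing. Bulk RNA sequencing compared 3 Kihet with 3 WT cerebella of C57BL/6J mice, all aged 40 weeks. Kihet samples carry an SCA7 knock-in in Atxn7, labelled 140Q/5Q for the long and the short glutamine repeat of the pair of alleles, and WT samples are labelled wild type. SCA7 is spinocerebellar ataxia type 7, a disease of an expanded glutamine repeat in ataxin-7. The labels give no sex and do not say whether each sample was 1 animal, so the p-values reflect only how far these libraries differ from each other, and some of that may be technical.

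At excitatory synapses, scaffold proteins of the Dlg family hold glutamate receptors and the tails of adhesion molecules, Dlgap proteins link Dlg to Shank proteins, and Shank proteins reach on to Homer and the actin skeleton. Gephyrin plays the corresponding part under glycine and GABA-A receptors. Across the cleft, neurexins and LAR-type receptor phosphatases of the presynaptic side bind neuroligins, Lrrtm, Lrfn, Slitrk, Il1rapl1 and Lrrc4 proteins of the postsynaptic side. In the cerebellum these molecules serve the synapses of parallel and climbing fibres on Purkinje cells, those of mossy fibres on granule neurons and those of inhibitory interneurons.

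In the Kihet cerebella 1 of the 40 genes was lower by edgeR with an adjusted p of at most 0.05, the scaffold gene Dlg2, and none was higher. That is 2.5% of the genes, against 1.9% of all 16699 genes called in either direction, 1.28% called lower and 0.629% called higher, so the share of called members was near that of all genes. Of all genes 213 were lower and 105 higher, and with library size as the only scaling 190 were lower and 323 higher. At an unadjusted edgeR p under 0.05 there were 8 of the 40 and 3017 of the 16699 genes, and DESeq2 called 2 members lower and 0 higher. The median log2 fold change, Kihet over WT, was 0.05 over the 40 genes and 0.01 over all tested genes, with 18 members below 0 and 22 above. The members' fold changes ran between -0.59 and 0.50 on the log2 scale. In 8 members the 3 Kihet values lay all above or all below the 3 WT values, which is 20% of the members against 23.8% of all tested genes. Of these 8, Dlg1, Dlg2, Shank2 and Ptprd lay below (11.5% of all tested genes do), and Slitrk5, Ptprs, Adgrb2 and Lrrc4c lay above (12.3% of all tested genes do).

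**Figure D1:**
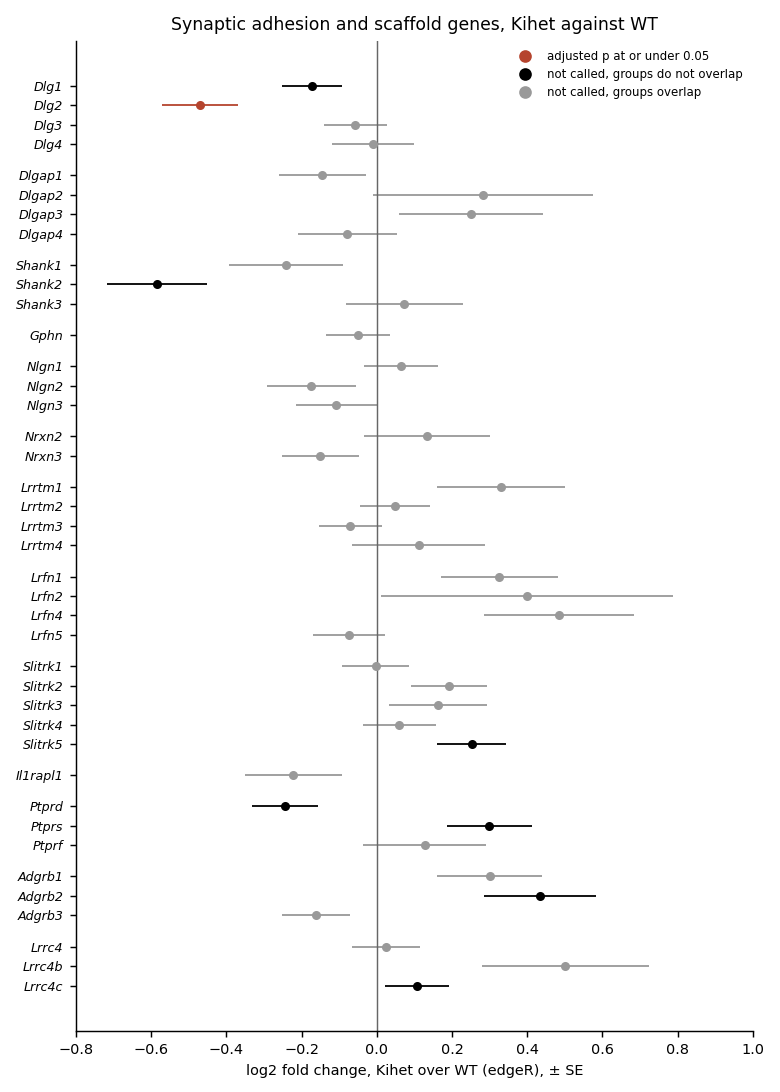
Log2 fold change of each of the 40 genes, Kihet over WT, with its standard error from edgeR, grouped by family. Dlg2 in red is the called gene, black points are the other 7 genes whose Kihet and WT libraries did not overlap, and grey points are the remaining 32.

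The libraries held between 34630391 and 39826478 counts in Kihet and between 39528292 and 49127673 in WT, and the 40 genes took between 0.414% and 0.483% of each. In single libraries a member had between 40 counts (Lrfn2) and 23676 counts (Dlg2). Sums over marker genes showed cerebellar tissue in all 6 libraries. The 8 markers of granule neurons summed to between 3598 and 4158 CPM in Kihet and between 4405 and 4911 CPM in WT, whereas 6 forebrain markers summed to at most 13.1 CPM in any library. CPM is read counts scaled to a common library size by TMM. Some libraries stood apart. Brainstem markers summed to 77.7, 15.6 and 51.9 CPM in Kihet replicates 1, 2 and 3 and to 16.1, 22.9 and 17.0 CPM in WT, and 4 of the 9 were at 0 in at least 1 library. Choroid plexus markers summed to 275, 25.7 and 1311 CPM in Kihet and to 527, 505 and 1898 CPM in WT. WT replicate 1 had low counts of GC-rich transcripts, and its values for the members are given with the composition results.

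The Dlg family was measured with all 4 genes, and they encode membrane-associated guanylate kinases with PDZ domains. Dlg2, which encodes PSD-93, lies on chromosome 7 (mm10, 90476672 to 92449247, plus strand) in a span of 1973 kb with 17 annotated transcripts. Its counts therefore pool transcripts from distant start sites, of which the RefSeq windows used here (GRCm38.p6, the same build) hold 3. The first of the 3 is at 91090786, inside the annotated span, so they do not cover every annotated start. The 3 starts are shown because the fall of Dlg2 cannot be assigned to any of them. Each line gives 100 bases before and 20 bases from the start, on the plus strand, with CpG pairs in capitals, and the stretches lie at chr7:91090686-91090805, chr7:92062294-92062413 and chr7:92234870-92234989.
Dlg2 start 1: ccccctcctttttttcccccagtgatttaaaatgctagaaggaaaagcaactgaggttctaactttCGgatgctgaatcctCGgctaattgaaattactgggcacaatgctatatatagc
Dlg2 start 2: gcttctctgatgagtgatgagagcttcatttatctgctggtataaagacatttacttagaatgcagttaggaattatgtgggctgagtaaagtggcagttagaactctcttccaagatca
Dlg2 start 3: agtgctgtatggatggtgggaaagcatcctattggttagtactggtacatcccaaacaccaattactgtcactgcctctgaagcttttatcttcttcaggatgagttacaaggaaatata
In the full windows of 300 bases the 3 starts held 3, 1 and 2 CpG pairs at a GC content of 44.7%, 46% and 43%. The 44 RefSeq windows found for 29 of the 40 genes had a median of 10 CpG pairs and 57.2% GC, and all 32851 windows a median of 7 pairs and 52.7% GC. All 3 starts shown for Dlg2 thus lay below both medians.

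Dlg2 had 330.3, 385 and 303 CPM in the Kihet libraries, against 485, 495 and 430 CPM in the WT libraries. Every Kihet library lay below every WT library, and Kihet replicate 2 came nearest. The means were 339 ± 42.1 CPM in Kihet and 469.9 ± 35.1 CPM in WT (SD, n = 3 each). The log2 fold change was -0.47 ± 0.10 (SE), a fall of the level to 0.722 of WT, with an edgeR adjusted p of 0.0466. The call rests close to the threshold. It was lost with relative log expression scaling (edgeR adjusted p 0.0532) and once brainstem markers entered the fit as a covariate (log2 fold change -0.41, edgeR adjusted p 0.88, with 3 genes called in all). That covariate (mean log2 CPM) was 3.30, 0.67 and 2.48 in Kihet and -0.48, 0.95 and -1.41 in WT. It is thus partly confounded with genotype, for every gene. Without Kihet replicates 1 and 3 or WT replicates 1, 2 and 3 the edgeR adjusted p was 0.181, 0.166, 0.168, 0.133 and 0.0752, while without Kihet replicate 2 it was 0.00705.

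Dlg4, which encodes the most studied scaffold of the excitatory postsynaptic density, had 346, 379 and 359 CPM in Kihet and 304, 420 and 368 CPM in WT. The groups overlapped, and the log2 fold change was -0.01 ± 0.11 (edgeR adjusted p 0.97). Dlg1, which encodes SAP97, had 159, 166 and 152 CPM in Kihet and 190.1, 181 and 166 CPM in WT. The groups were apart by less than 1 CPM, and the log2 fold change of -0.17 ± 0.08 did not pass the test (edgeR adjusted p 0.29). Dlg3, which encodes SAP102, ranged from 110.4 to 126 CPM in Kihet and from 113 to 129.7 CPM in WT.

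Within each library the 4 genes can be set against each other. That cancels the scaling of the libraries but not a bias that follows GC content. The longest transcript has 43.8% GC in Dlg1, 44.3% in Dlg2, 50.4% in Dlg3 and 46.8% in Dlg4. Per kilobase of exon, Dlg2 made up 25.1%, 26.5% and 23.6% of the summed Dlg level in Kihet and 32.6%, 30.1% and 29.7% in WT. Dlg4 made up 32.3%, 32.1% and 34.4% in Kihet and 25.1%, 31.3% and 31.2% in WT. In Kihet libraries Dlg4 was the most abundant Dlg gene per length, and in WT replicate 1 Dlg2 was clearly so, with Dlg2 and Dlg4 close together in the other WT libraries. The ratio of Dlg2 to Dlg4 counts was 0.955, 1.02 and 0.842 in Kihet and 1.59, 1.18 and 1.17 in WT. Its ratio to Dlg3 was 2.88, 3.07 and 2.74 in Kihet and 3.98, 3.82 and 3.79 in WT. Both ratios were lower in every Kihet library, and each of the 7 paralogue ratios compared gave an exact two-sided permutation p of 0.1 (0.1 after adjustment over the 7), the smallest that 3 against 3 samples allow. The 7 pairs were chosen after their values were seen, so these p-values describe the separation and do not test it. WT replicate 1, low in GC-rich transcripts, had the highest ratio in each pair except Dlg2 to Dlg1. GC content is 43.8% in Ptprd and 60.3% in Ptprs, and 42.2% in Adgrb3 and 63.1% in Adgrb2. Without WT replicate 1 the share difference, Kihet minus WT, went from -5.71 to -4.79 percentage points for Dlg2. It went from -8.66 to -7.34 for Shank2 and from -8.04 to -5.24 for Ptprd. The part of GC content in the shares and ratios was not tested.

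Of the 3 Shank genes, which encode the master scaffolds of the postsynaptic density, none was called. Shank2 (chromosome 7, 144001928 to 144424494, plus strand) had 169, 222 and 158 CPM in the Kihet libraries, against 248, 315 and 262 CPM in the WT libraries. No Kihet library reached the lowest WT library. Its log2 fold change of -0.59 ± 0.13 was further from 0 than that of Dlg2, with a larger error, and the edgeR adjusted p of 0.0568 missed the threshold. Shank2 passed in 7 of 15 alternatives, among them DESeq2 (adjusted p 0.00103) and edgeR without Kihet replicate 2 (adjusted p 0.00413). It did not pass with relative log expression scaling (edgeR adjusted p 0.0661), limma-voom (0.0584) or the brainstem covariate (edgeR 0.892), with which 3 genes were called in all. Without Kihet replicates 1 and 3 or WT replicates 1, 2 and 3 the edgeR adjusted p was 0.2, 0.205, 0.12, 0.15 and 0.127. Shank3 had 170.3, 238 and 178 CPM in Kihet and 148, 219.6 and 189 CPM in WT, with overlapping groups and a log2 fold change of 0.07 ± 0.16 (edgeR adjusted p 0.84). Shank1 ranged from 128 to 175 CPM in Kihet and from 139 to 207 CPM in WT (log2 fold change -0.24 ± 0.15, edgeR adjusted p 0.44).

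Shank2 made up 33.9%, 32.7% and 31.5% of the summed Shank level per length in Kihet and 44.0%, 40.2% and 39.9% in WT. Shank3 made up 39.9%, 41.0% and 41.5% in Kihet and 30.7%, 32.8% and 33.8% in WT. Shank2 was thus the most abundant Shank gene per length in all 3 WT libraries and Shank3 in all 3 Kihet libraries. The share of Shank1 was 26.5 ± 0.413% in Kihet and 26.2 ± 0.856% in WT (SD, n = 3 each). The ratio of Shank2 to Shank3 counts was 0.995, 0.934 and 0.889 in Kihet and 1.68, 1.43 and 1.38 in WT.

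**Figure D2:**
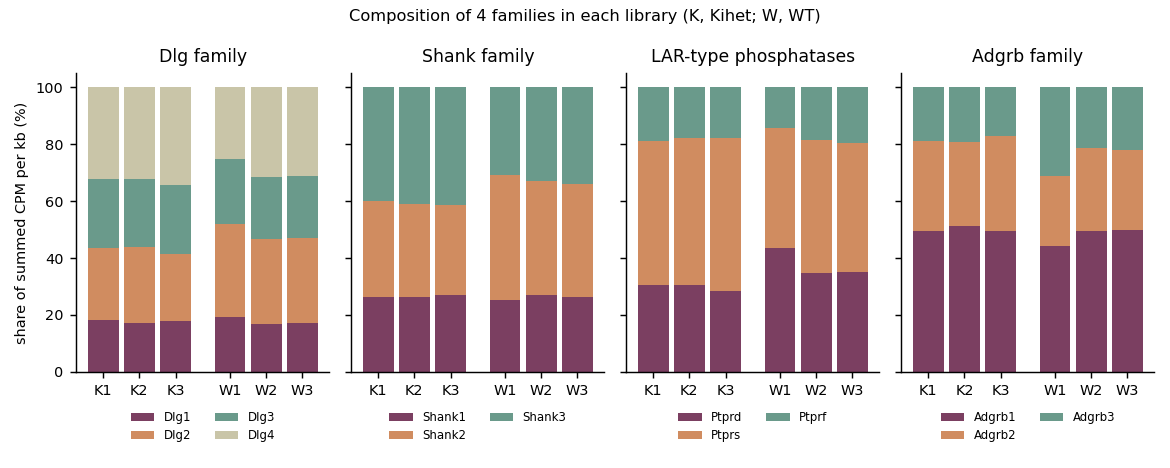
Share of each gene in the summed CPM per kilobase of exon of its family, in percent, for each Kihet library (K1 to K3) and each WT library (W1 to W3). Dlg2, Shank2, Ptprd and Adgrb3 take smaller shares in all 3 Kihet libraries than in all 3 WT libraries. The families shown are those of the paralogue ratios, chosen after their values were seen. Of the families not shown, Lrrc4 also had shares below, and Dlgap3 and Slitrk5 shares above, all WT libraries. In the neuroligin, neurexin, Lrrtm and Lrfn families every share overlapped.

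None of the 4 Dlgap genes was called. Dlgap1, the most abundant per length, had 311, 408 and 313 CPM in Kihet and 371, 418 and 352 CPM in WT (log2 fold change -0.15 ± 0.12, edgeR adjusted p 0.55), with overlapping groups. Dlgap4 ranged from 123 to 161 CPM in Kihet and from 121 to 169 CPM in WT, and Dlgap3 from 67.8 to 93.3 CPM in Kihet and from 46.4 to 84.7 CPM in WT. Dlgap2 was near the bottom of the 40 genes, at 1.99 ± 0.488 CPM in Kihet and 1.65 ± 0.546 CPM in WT (SD, n = 3 each). Gphn, which encodes gephyrin, had 105, 115 and 103 CPM in Kihet and 120.3, 103 and 111 CPM in WT. Its groups overlapped and its log2 fold change was -0.05 ± 0.09 (edgeR adjusted p 0.80). Of all 12 scaffold genes 9 had a log2 fold change below 0, with a median of -0.07.

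**Figure D3:**
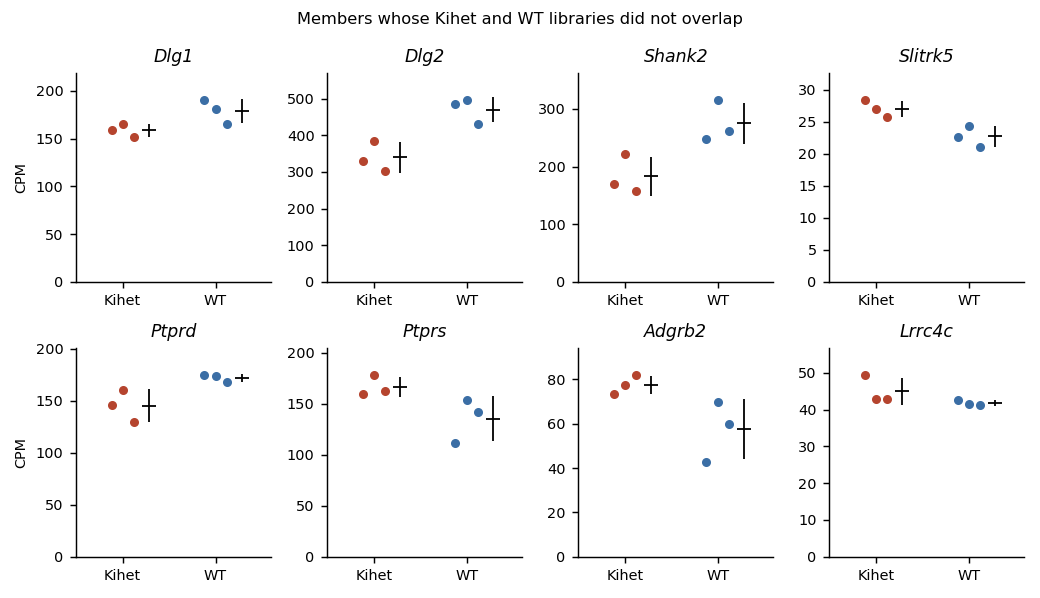
CPM in each library (points) with the mean and SD (black) for the 8 genes whose Kihet and WT libraries did not overlap. Dlg2 (303 to 385 CPM in Kihet, 430 to 495 CPM in WT) and Shank2 (158 to 222 CPM in Kihet, 248 to 315 CPM in WT) have the widest gaps relative to their level among those below.

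Among the presynaptic organizers no gene was called. Of the LAR-type receptor phosphatases, Ptprd (chromosome 4, 75941238 to 78211961, minus strand) had 146, 161 and 129.6 CPM in Kihet and 175, 174 and 168 CPM in WT. Every Kihet library was below the WT libraries, and the log2 fold change of -0.24 ± 0.09 had an edgeR adjusted p of 0.19. With offsets for GC content and length it was -0.053, and without Kihet replicate 3 it was -0.16. Ptprs had 159.7, 178 and 163 CPM in Kihet and 111, 153 and 142 CPM in WT. Every Kihet library was above the WT libraries, of which replicate 1 was lowest, and the log2 fold change of 0.30 ± 0.11 had an edgeR adjusted p of 0.20 and was 0.16 without WT replicate 1. Ptprf, the LAR gene itself, ranged from 32.3 to 37.7 CPM in Kihet and from 23.2 to 37.7 CPM in WT.

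Ptprs was the most abundant of the 3 phosphatase genes per length in Kihet, with shares of 50.7%, 51.5% and 54.1%, against 42.2%, 46.8% and 45.2% in WT. Ptprd held 30.4%, 30.6% and 28.3% in Kihet and 43.4%, 34.9% and 35.2% in WT. In WT replicate 1 Ptprd exceeded Ptprs, which was not so in the other WT libraries. The neurexin genes Nrxn2 and Nrxn3 had overlapping groups. Nrxn2 had 274, 372 and 304 CPM in Kihet and 217, 357 and 292 CPM in WT (log2 fold change 0.13 ± 0.17), and Nrxn3 ranged from 173 to 214 CPM in Kihet and from 193 to 232 CPM in WT (log2 fold change -0.15 ± 0.10).

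The postsynaptic partners of neurexins did not pass the test either. Nlgn2, the neuroligin of inhibitory synapses, was the most abundant of all 40 genes per kilobase of the union of exons in both groups, at 33.4 ± 3.71 CPM per kilobase in Kihet and 37.7 ± 5.95 in WT (SD, n = 3 each). Per kilobase of the longest transcript it ranked 5 in both groups, at 34.7 CPM in Kihet and 39.2 CPM in WT, behind Dlg4 at 57.1 CPM in Kihet and Dlg2 at 60.1 CPM in WT, which ranked 1. Nlgn2 had 178, 218 and 184 CPM in Kihet and 191, 257 and 206 CPM in WT, with overlapping groups and a log2 fold change of -0.17 ± 0.12 (edgeR adjusted p 0.48). Nlgn2 made up 85.9 ± 1.18% of the summed level of the 3 neuroligin genes in Kihet and 87.2 ± 1.74% in WT. Of the annotated exon bases of Nlgn3, 41.2% are shared with Gm21986 on the same strand. Of those of Nlgn1, 9.16% are shared with A830092H15Rik on the opposite strand. Reads on shared bases depend on the counting, so these shares may overstate Nlgn2. Nlgn1, found at excitatory synapses, ranged from 37.8 to 43.7 CPM in Kihet and from 35.8 to 43.6 CPM in WT. Nlgn3 ranged from 19.9 to 24.5 CPM in Kihet and from 22.2 to 26.1 CPM in WT.

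The Lrrtm genes encode leucine-rich repeat proteins that bind neurexins at excitatory synapses. Lrrtm1, Lrrtm2 and Lrrtm3 each lie on the opposite strand inside a catenin gene, Ctnna2, Ctnna1 and Ctnna3, and the strand setting of the counting is not given in the sources used here. The annotated exons of Lrrtm2 and Ctnna1 share 95 bases, and those of the other pairs none. Lrrtm3, the most abundant of the 4 per length, had 70.9, 78.7 and 66.4 CPM in Kihet and 74.1, 76.0 and 76.9 CPM in WT, with overlapping groups (log2 fold change -0.07 ± 0.08). Lrrtm2 was at 48.0 ± 4.21 CPM in Kihet and 46.5 ± 3.41 CPM in WT (SD, n = 3 each). Lrrtm1 was at 10.8 ± 0.955 CPM in Kihet and 8.58 ± 2.02 CPM in WT, and Lrrtm4 at 10.9 ± 2.86 CPM in Kihet and 10.1 ± 1.22 CPM in WT. Of the 4, Lrrtm1 had the highest log2 fold change, 0.33 ± 0.17, with an edgeR adjusted p of 0.33.

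None of the postsynaptic partners of the LAR-type phosphatases was called. The Slitrk genes encode single-pass adhesion proteins, and 4 of the 5 had a log2 fold change above 0 (median 0.16). Slitrk5 had 28.4, 27.0 and 25.8 CPM in Kihet and 22.7, 24.4 and 21.1 CPM in WT. All Kihet libraries were above the WT libraries, and the log2 fold change of 0.25 ± 0.09 had an edgeR adjusted p of 0.19. Slitrk1, the most abundant of the 5 per length, had 83.5, 88.1 and 74.4 CPM in Kihet and 76.6, 87.6 and 82.4 CPM in WT (log2 fold change -0.0035 ± 0.09). Slitrk2, Slitrk3 and Slitrk4 had means of 34.3, 20.5 and 47.9 CPM in Kihet and 30.0, 18.4 and 45.9 CPM in WT, with overlapping groups. Il1rapl1, a member of the interleukin-1 receptor family that binds Ptprd, had 13.1, 11.7 and 10.9 CPM in Kihet and 13.6, 16.0 and 12.1 CPM in WT (log2 fold change -0.22 ± 0.13, edgeR adjusted p 0.39).

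Of the Lrfn genes, which encode SALM proteins, 3 of 4 had a log2 fold change above 0. Lrfn4, whose product binds LAR-type phosphatases, was the most abundant on average per kilobase of the union of exons and had 21.8, 29.2 and 28.7 CPM in Kihet and 13.1, 24.6 and 19.5 CPM in WT. The groups overlapped, and the log2 fold change was 0.48 ± 0.20 (edgeR adjusted p 0.24), and 0.26 without WT replicate 1. By the longest transcript Lrfn1 had the largest mean share of the family in Kihet (35.1%, against 33.7% for Lrfn4), and Lrfn5 in WT (36.1%, against 28.4% for Lrfn4). Lrfn1 was at 26.5 ± 3.73 CPM in Kihet and 21.2 ± 4.43 CPM in WT, and Lrfn5 at 30.7 ± 3.24 CPM in Kihet and 32.3 ± 1.20 CPM in WT (SD, n = 3 each). Lrfn2 had 3.17, 1.004 and 2.01 CPM in Kihet and 0.98, 1.98 and 1.73 CPM in WT. Its highest value was in Kihet replicate 1, which also had the highest sum of brainstem markers. With those markers as a covariate its log2 fold change was -0.66 (edgeR adjusted p 0.958). Lrfn2 had only 40 to 117 counts per library, and a part of brainstem tissue in its values was not tested. Lrfn4 lies inside Pcx and Lrfn1 inside Samd4b, each on the opposite strand with no shared exon bases.

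The 3 Lrrc4 genes encode netrin-G ligands. Lrrc4b, which binds LAR, had the highest log2 fold change of all 40 genes, 0.50 ± 0.22, but did not pass the test (edgeR adjusted p 0.27). It had 76.1, 109 and 89.2 CPM in Kihet and 40.2, 82.2 and 71.3 CPM in WT, and WT replicate 1 stood far below the rest. Without that library its log2 fold change was 0.24, and in mean log2 CPM Slitrk2, Lrfn4, Adgrb2 and Slitrk5 then had larger differences. Lrrc4c, a ligand of netrin-G1, had 49.3, 42.8 and 42.9 CPM in Kihet and 42.7, 41.6 and 41.2 CPM in WT. The groups were apart by less than 1 CPM (log2 fold change 0.11 ± 0.08, edgeR adjusted p 0.55). Lrrc4 had 110.7, 126 and 103 CPM in Kihet and 107, 116 and 111 CPM in WT (log2 fold change 0.02 ± 0.09), and it lies inside Snd1 on the opposite strand with no shared exon bases.

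The Adgrb genes encode brain-specific angiogenesis inhibitors, adhesion G protein-coupled receptors of the synapse. Adgrb2 had 73.7, 77.4 and 81.8 CPM in Kihet and 42.8, 69.7 and 59.9 CPM in WT. All Kihet libraries were above the WT libraries, and the log2 fold change of 0.43 ± 0.15 had an edgeR adjusted p of 0.17. It was 0.25 without WT replicate 1 and 0.22 with GC and length offsets. Adgrb1, the most abundant of the 3 per kilobase of the union of exons, had 128, 149 and 136 CPM in Kihet and 85.2, 132 and 119 CPM in WT, with overlapping groups (log2 fold change 0.30 ± 0.14, edgeR adjusted p 0.29, and 0.12 without WT replicate 1). Adgrb3, the receptor of C1ql proteins on Purkinje cells, had 125, 143 and 120.3 CPM in Kihet and 154, 145 and 135 CPM in WT (log2 fold change -0.16 ± 0.09, edgeR adjusted p 0.38). Its share of the family was 18.8%, 19.1% and 17.1% in Kihet and 31.1%, 21.2% and 22.0% in WT. By the longest transcript Adgrb3 was instead the largest of the 3 on average, with 39.3%, 39.9% and 36.6% in Kihet and 56.0%, 43.1% and 44.2% in WT, and its Kihet shares were again below its WT shares.

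Across the 40 genes the log2 fold changes were ordered by properties of the transcripts that did not enter the choice of genes. Of the 15 genes whose longest transcript has at least 55% GC, 12 had a log2 fold change above 0, with a median of 0.28 (0.17 over the 3676 tested genes in that range). Of the 25 genes under 55% GC, 10 were above 0, with a median of -0.05 (-0.03 over 12980 tested genes). As a description over genes of the same 6 libraries, Spearman's correlation between GC content and log2 fold change was 0.45 over the 40 genes and 0.32 over 16656 tested genes. WT replicate 1 moved with this order. Its log2 CPM relative to the other WT libraries had a Spearman correlation of -0.80 with GC content over the 40 genes and of -0.54 over all, and in Lrrc4b the difference was -0.93. Without WT replicate 1 the median of the 15 GC-rich members was 0.0066, against 0.090 over the 3676 tested genes in that range. The Spearman correlation was then 0.16 over the 40 genes and 0.14 over all. Dlg2 and Shank2 had differences of -0.45 and -0.66 in mean log2 CPM without that library.

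**Figure D4:**
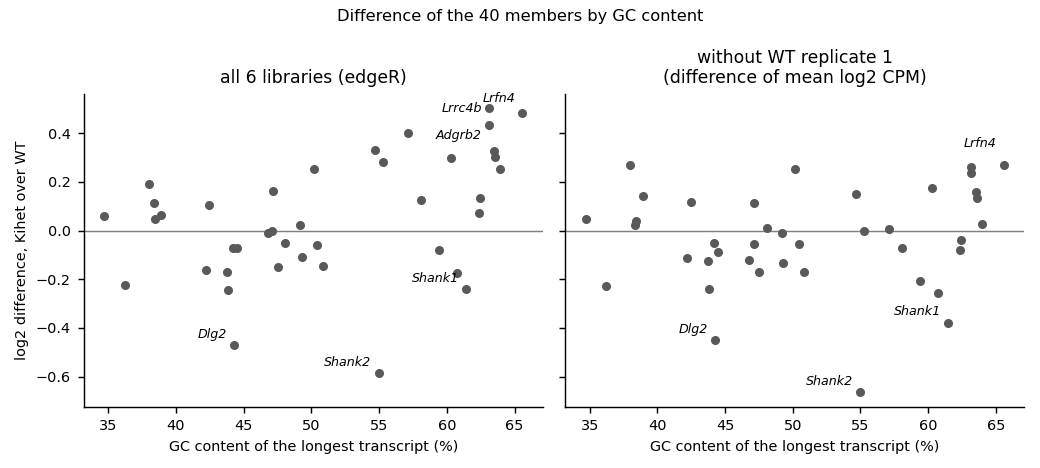
Log2 difference, Kihet over WT, of the 40 genes against the GC content of their longest transcript in percent, in all 6 libraries (left, edgeR log2 fold change) and without WT replicate 1 (right, difference of mean log2 CPM). The GC-rich genes sit mostly above 0 on the left and around 0 on the right, and Dlg2 and Shank2 are low in both.

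Long genes lay lower. The 19 members that span at least 100 kb had a median log2 fold change of -0.07, as did the 2375 tested genes of that span (-0.07), and the 21 shorter members one of 0.16 (0.02 over 14281 tested genes). Called lower were 1 of the 19 long members and 3.2% of all tested genes of that span. Spearman's correlation of the log2 fold change with exon length was -0.59 over the 40 genes and -0.22 over all. With offsets for GC content and exon length in every library, 4 members were lower (Dlg2, Shank2, Shank1 and Nlgn2) and 0 higher among 684 genes called, with Dlg2 at -0.31 (edgeR adjusted p 0.0174), Shank2 at -0.57 (0.00463), Shank1 at -0.39 (0.00897) and Nlgn2 at -0.36 (0.0239).

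Other genes of the same synapses were taken as lists. Of 18 further genes of the excitatory postsynaptic side 2 were lower and 0 higher, with a median log2 fold change of -0.08. That is 11.1% lower, against 1.28% of all tested genes. Anks1b, which encodes the Dlg-binding protein AIDA-1 (chromosome 10, 89873509 to 90973300), had 250.3, 279 and 243 CPM in Kihet and 376, 367 and 343 CPM in WT. The groups were well apart, and it fell by 0.49 on the log2 scale (SE 0.08, edgeR adjusted p 0.0183). The call was lost with the brainstem covariate (log2 fold change -0.43, edgeR adjusted p 0.791), with which 3 genes were called in all. It was also lost on leaving out any library but Kihet replicate 2 (edgeR adjusted p 0.0549 to 0.118). Kalrn, which encodes kalirin, a signalling protein of dendritic spines, had 42.4, 47.1 and 39.6 CPM in Kihet and 54.97, 62.8 and 55.8 CPM in WT, and fell by 0.43 on the log2 scale (SE 0.09, edgeR adjusted p 0.0497). That call held in 5 of 15 alternatives. It was lost with relative log expression scaling (adjusted p 0.0561), library size alone (0.0523), limma-voom (0.055), the brainstem covariate (0.864), GC and length offsets (log2 fold change -0.23, 0.104), and on leaving out any library but Kihet replicate 2 (0.11 to 0.188). Cnksr2, a scaffold that binds Dlg proteins, was at 89.0, 95.9 and 80.8 CPM in Kihet and 127, 133 and 105 CPM in WT (edgeR adjusted p 0.0585). In 2 of the 18 genes, Begain and Nsmf, all Kihet libraries were above all WT libraries, and in 4 they were below. Together that is 33.3% of the list, against 23.8% of all tested genes (12.3% above and 11.5% below). Begain, which encodes a Dlg-binding protein, had 25.8, 22.6 and 26.6 CPM in Kihet and 15.7, 20.1 and 18.9 CPM in WT (log2 fold change 0.46 ± 0.12, edgeR adjusted p 0.0812). Begain, Nsmf, Cnksr2 and, in the next list, the uncalled Clstn1 were chosen after their values were seen.

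Of 31 further adhesion genes and ligands 1 was lower and 0 higher, which is 3.23% lower against 1.28% of all tested genes. Clstn2, which encodes the cadherin-related adhesion protein calsyntenin 2 (chromosome 9, 97444395 to 98033181), had 43.9, 51.3 and 37.7 CPM in Kihet and 77.4, 86.1 and 70.05 CPM in WT. Every Kihet library was far below the WT libraries, with a log2 fold change of -0.81 ± 0.12 and an edgeR adjusted p of 0.0127. The call was lost with the brainstem covariate (log2 fold change -0.79, edgeR adjusted p 0.586), with which 3 genes were called in all. It was also lost without Kihet replicate 1 (edgeR adjusted p 0.081) or WT replicate 1 (0.065). Clstn1, its abundant paralogue, had a log2 fold change of 0.04. Of 8 tested genes of the inhibitory postsynaptic side (9 listed) none was called, 0 had an unadjusted edgeR p under 0.05, and the median was -0.07.

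Markers of several cerebellar cell types were lower beside Dlg2, where 1.28% of all tested genes were called lower. Of 8 Purkinje cell markers 4 were lower and 0 higher, and their sum was 8565, 10287 and 9144 CPM in Kihet and 14681, 14569 and 12983 CPM in WT, with no marker at 0 in any library. Of 8 granule neuron markers 2 were lower, and of 5 astrocyte markers 3. The astrocyte sum was between 1340 and 1614 CPM in Kihet and between 1998 and 2158 CPM in WT. All 5 Bergmann glia markers had a log2 fold change below 0, and 1 was called lower. All 7 markers of molecular layer interneurons and Golgi cells (median -0.25) and all 3 of endothelium were below 0, with none called. Other types differed: the median log2 fold change was 0.03 over 5 oligodendrocyte markers (1 lower), 0.01 over 5 microglia markers (none called) and 0.20 over 4 markers of oligodendrocyte precursors (1 higher). Kihet replicate 2 was the highest Kihet library in Dlg2, in Shank2 and in the Purkinje cell and granule neuron sums. The same held for the Bergmann glia and astrocyte sums, and for Dlg4, Dlgap1, Shank3 and Nrxn2, whose groups overlapped. It did not hold for the oligodendrocyte sum or for Slitrk2 and Slitrk5. The members together took 0.483% of Kihet replicate 2, against 0.426% and 0.421% of Kihet replicates 1 and 3. Fewer cells of a type and less RNA per cell cannot be told apart in these bulk samples, and the part of cell composition in the values of Dlg2, Shank2, Anks1b, Kalrn and Clstn2 was not tested.

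**Figure D5:**
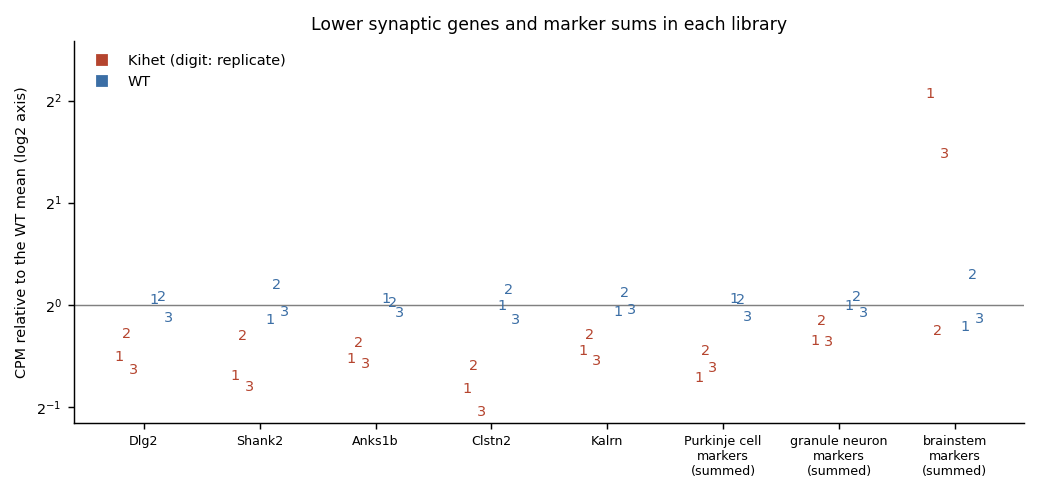
CPM of 5 synaptic genes and summed CPM of 3 marker lists in each library, relative to the WT mean, on a log2 axis, with digits for the replicate numbers (Kihet red, WT blue). The synaptic genes were picked for the figure because they were lower in Kihet. They and the Purkinje cell and granule neuron markers are below 1 in all 3 Kihet libraries. Brainstem markers are high in Kihet replicates 1 and 3.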

How the data were processed

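The authors deposited raw counts of reads per Ensembl gene. The submitters' processing notes name mm10, HTSeq 0.6.1, Bowtie2 2.1.0, TopHat2 2.0.14 and bcl2fastq 2.17.1.14, and the libraries were made from total RNA with a stranded mRNA kit, per the labels' protocols. Which annotation was counted, and with what strand setting, is not given in the sources used here. Symbols, exon lengths and positions came from GENCODE M21 (release 21), which matched 48349 of 48709 identifiers. Tests used R 4.3.3 and edgeR 4.0.16 across all genes: filterByExpr (minimum count 10, minimum total 15), TMM, a quasi-likelihood F test on genotype over 3 Kihet and 3 WT libraries, and Benjamini-Hochberg adjustment, with calls at an adjusted p of at most 0.05. The standard error is the absolute log2 fold change divided by the square root of F. Levels per length are TMM-scaled CPM (counts scaled to a common total) per kilobase of the union of exons. Replicate libraries differed by more than sampling noise (chi-square per degree of freedom between 13.1 and 28.1), so each counted as 1 sample. The fit was tested on simulated data. Alternatives used DESeq2 1.42.0, limma 3.58.1 (voom), other scalings, no filter, GC and length offsets, marker covariates, the replicate block and leaving out each library. The members, the lists and the tests were chosen with earlier results of these data known. Full statistics are given for called members, for members whose groups did not overlap, and for the most abundant member of each family. Exons of other genes overlap some members, and reads on shared bases depend on the counting.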

Additional observations from a re-analysis of the deposited data

How the results depend on the processing

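The count of members called lower was 1. It was 0 with relative log expression scaling and with the brainstem covariate, 2 with library size alone, without the filter, with DESeq2 and at an adjusted p at or under 0.1, and 4 with the replicate block, with GC and length offsets and with the choroid plexus covariate. Leaving out 1 library gave 0 to 2. The count called higher was 0, but 3 without the filter and 6 with the replicate block, and 0 to 0 on leaving out 1 library. Over all genes 318 were called, against 513 with library size alone, 1303 without the filter, 908 with DESeq2, 2034 with the replicate block, 684 with offsets, 3 with the brainstem covariate, 1435 with the choroid plexus covariate, 721 at an adjusted p at or under 0.1 and 39 to 858 on leaving out 1 library. Without Kihet replicate 2 there were 858, and without Kihet replicates 1 and 3 or WT replicates 1, 2 and 3 there were 39, 73, 47, 89 and 78. The cause was not tested. Deviations from the group means correlated at 0.001, 0.174 and 0.318 between same-numbered samples. Between samples of different number they correlated at -0.291 to 0.103. Whether same-numbered samples share a batch was not tested. Replicate numbers are not stated to pair samples, so the replicate block is a description only. It called Ptprd, Shank2, Shank1 and Dlg2 lower and Ptprs, Adgrb2, Lrfn1, Adgrb1, Lrfn4 and Lrrc4b higher. Dlg2 kept its sign in all 15 alternatives (-0.63 to -0.31 on the log2 scale), and so did Shank2 (-0.81 to -0.48).

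The log2 fold changes that changed sign all belong to uncalled members. With GC and length offsets they were 0.14 for Dlg4, -0.012 for Dlgap3, -0.11 for Shank3, -0.0036 for Nrxn2, 0.048 for Lrfn5, 0.059 for Slitrk1 and 0.011 for Adgrb3. With the brainstem covariate they were -0.22 for Dlgap2, 0.0067 for Dlgap4, 0.083 for Gphn, 0.027 for Lrrtm3, -0.36 for Lrrtm4, -0.66 for Lrfn2, 0.011 for Slitrk1 and -0.038 for Slitrk3. With the choroid plexus covariate they were -0.11 for Shank3, -0.0069 for Nlgn1, -0.0021 for Nrxn2, -0.067 for Lrrtm2, -0.019 for Slitrk4 and -0.094 for Lrrc4. With library size alone they were 0.016 for Dlg3, 0.066 for Dlg4, 0.021 for Gphn, 0.00081 for Lrrtm3, 0.0010 for Lrfn5 and 0.070 for Slitrk1. Dlg4 was at 0.0016 with the replicate block and 0.0027 with limma-voom. Leaving out 1 library gave -0.13 to 0.10 for Dlg4, -0.21 to 0.035 for Dlgap4, -0.098 to 0.21 for Shank3, -0.012 to 0.13 for Nlgn1, -0.047 to 0.31 for Nrxn2, -0.014 to 0.12 for Lrrtm2, -0.12 to 0.24 for Lrrtm4, -0.051 to 0.73 for Lrfn2, -0.063 to 0.068 for Slitrk1, -0.0060 to 0.16 for Slitrk4, -0.080 to 0.23 for Ptprf and -0.067 to 0.096 for Lrrc4. At 40 to 117 counts per library, Lrfn2 has the least precision of these.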
